A study of Homo sapiens with 4 samples.

Results

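The genes described here are 9 human genes of the interferon response, ISG15, IFI6, IFI27, STAT2, IRF1, IRF9, IFITM2, IFITM3 and BST2. They were taken by symbol from the 33538 genes of the deposited counts. They were followed in single-cell RNA-seq of BT474, an established human breast carcinoma line with luminal features that depends on the estrogen receptor and on HER2 (ERBB2). All cultures were BT474 treated for 4 h, and there were 4 groups: 100 nM fulvestrant together with 200 nM neratinib, 200 nM neratinib alone, 100 nM fulvestrant alone, and DMSO, the solvent. Fulvestrant binds the estrogen receptor and causes its loss. Neratinib blocks the kinases of the EGFR and HER2 family irreversibly. Each group was 1 library of 3' ends made with droplets, so no spread between cultures could be measured and no difference was tested. Every comparison below is between libraries.

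Type I and type III interferons bind receptors on the cell surface and activate the kinases JAK1 and TYK2, which phosphorylate STAT2 among other proteins. STAT2 and IRF9 are subunits of ISGF3, a complex that binds the interferon-stimulated response element (ISRE) in the promoters of many antiviral genes, while genes induced by interferon gamma often carry the gamma-activated sequence (GAS). STAT2, IRF9 and IRF1 are transcription factors of this pathway, and ISG15, IFI6, IFI27, IFITM2, IFITM3 and BST2 are among the genes it induces. Breast carcinoma cells often keep a low level of these genes without added interferon.

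Promoter windows of 300 bases, from 250 bases before to 50 after the annotated transcript start, were found in RefSeq (GRCh38.p14) for 8 of the 9 genes, with IFITM2 unmatched. Both strands were searched for an ISRE core, GAAANNGAAA, for a shorter spelling that lacks 1 base of the first repeat, GAANNGAAA, and for the GAS, TTCNNNGAA. A match describes letters and does not show that a factor binds there. The core was present in 5 of the 8 genes (ISG15, IFI6, IFI27, IFITM3 and BST2), against 3.57% of 35116 promoter windows. The shorter spelling was present only in IRF9 (7.66% of all windows), and the GAS in 4 genes, IFI27, IRF1, IRF9 and BST2 (7.66% of all windows). The STAT2 window held none of the 3. The whole windows of ISG15, STAT2 and IRF9 are shown because, among the 6 genes with enough counts to compare, the largest differences between libraries fell in these genes, that of ISG15 resting mostly on 1 cell. They lie at chr1:1013247-1013546 (plus strand), chr12:56360058-56360357 (minus strand) and chr14:24161015-24161314 (plus strand), and capitals mark the matches.
ISG15: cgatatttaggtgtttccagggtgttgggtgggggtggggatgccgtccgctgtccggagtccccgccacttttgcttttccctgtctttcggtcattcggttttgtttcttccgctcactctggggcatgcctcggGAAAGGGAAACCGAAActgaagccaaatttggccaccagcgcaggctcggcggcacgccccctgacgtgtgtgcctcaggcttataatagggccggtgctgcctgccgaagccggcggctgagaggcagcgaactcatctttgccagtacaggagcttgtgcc
STAT2: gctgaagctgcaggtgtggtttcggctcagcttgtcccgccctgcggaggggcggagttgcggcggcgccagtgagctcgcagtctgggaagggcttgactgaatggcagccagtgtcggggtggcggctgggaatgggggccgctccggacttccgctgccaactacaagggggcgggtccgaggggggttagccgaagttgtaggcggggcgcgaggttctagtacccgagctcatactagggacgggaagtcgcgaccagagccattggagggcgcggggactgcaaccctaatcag
IRF9: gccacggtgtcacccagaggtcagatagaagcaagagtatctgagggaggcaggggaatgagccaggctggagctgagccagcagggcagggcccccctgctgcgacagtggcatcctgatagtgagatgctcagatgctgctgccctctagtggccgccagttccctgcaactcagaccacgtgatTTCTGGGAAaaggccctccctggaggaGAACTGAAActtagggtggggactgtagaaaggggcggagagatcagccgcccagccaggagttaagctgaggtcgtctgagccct

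In ISG15 the capitals cover 2 ISRE core matches that overlap, at bases -113 to -104 and -107 to -98 from the transcript start. In IRF9 the first run of capitals is the GAS, at -63 to -55, and the next is the shorter ISRE spelling, at -36 to -28. The following lines show a match of the other genes with its neighbouring bases, each on the strand of its gene, to let the spelling be compared between genes. The IFI6 site lies at chr1:27672331-27672356, the 2 IFITM3 sites at chr11:320895-320920 and chr11:320878-320903, the BST2 site at chr19:17405743-17405768, the IFI27 site at chr14:94110633-94110658 and the IRF1 GAS at chr5:132490881-132490905.
IFI6: agagagggGAAAATGAAActctgcag
IFITM3 upstream site: aatgccagGAAAAGGAAActgttgag
IFITM3 downstream site: actgttgaGAAACCGAAActactggg
BST2: ctttctggGAAACTGAAActgaaaac
IFI27: gtttcctgGAAAATGAAAcctatctc
IRF1: agcctgatTTCCCCGAAatgacggc

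BST2 held 2 overlapping core matches, the first of which also overlapped a GAS match. IFI27 held core matches on both strands with a GAS match between them that overlapped both. The IFI6 window had 3 core matches, and that of IFITM3 had 2.

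**Figure D1:**
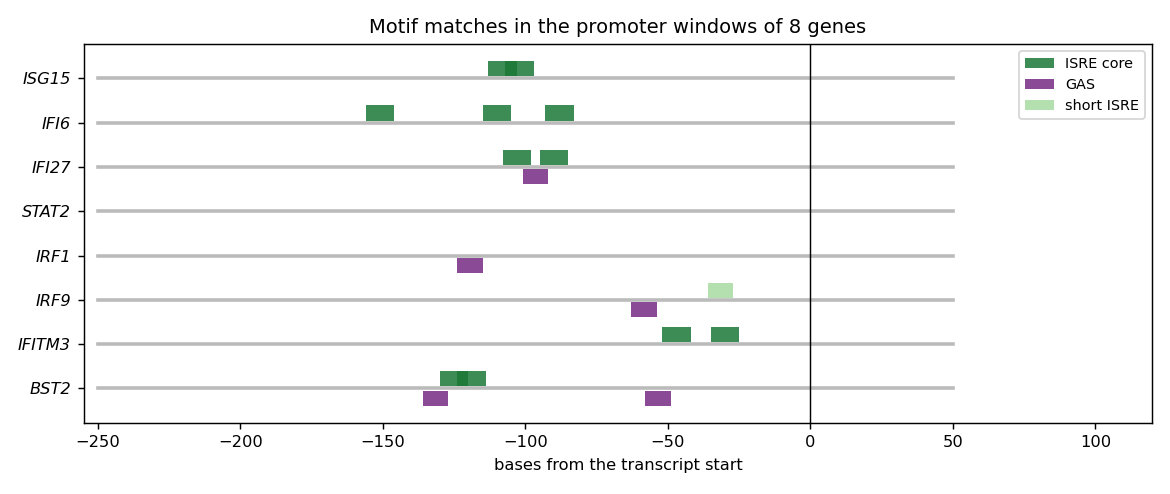
Position of motif matches, in bases from the transcript start, in the promoter windows of 8 genes. Boxes above a line are ISRE spellings and boxes below it are GAS matches; the ISRE core lay in 5 genes and the STAT2 line carries no box.

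Cells were barcodes with at least 5000 UMIs (unique molecular identifiers, each counting 1 captured RNA molecule) and at least 500 genes. They numbered 3876 with both drugs, 3507 with neratinib, 3485 with fulvestrant and 4301 with DMSO, 15169 in all, with a median of 22007, 22247, 23010 and 22565 UMIs per cell in the same order. The 7 luminal and epithelial markers looked at were all present, with ERBB2 among them, and their summed level was 4436 CPM with both drugs, 5076 with neratinib, 7414 with fulvestrant and 7733 with DMSO. CPM (counts per 1000000) are UMIs scaled to the same total in the cells of every library. Of the 6 immune markers, CD3E and NKG7 were at 0 in all libraries and PTPRC had 1 UMI, in the library with both drugs. The 6 together held 82, 92, 63 and 75 UMIs in the same order, nearly all of LYZ and CD79A. Among fibroblast and endothelial markers, COL1A1 (10.2 to 12.4 CPM) and VWF (1.72 to 2.44 CPM) were detected and the others had at most 4 UMIs in a library. The median mitochondrial share of a cell's UMIs was 21.1% with both drugs, 21.1% with neratinib, 16.7% with fulvestrant and 16.2% with DMSO, so it moved with neratinib. Barcodes found in more than 1 library numbered 23 and involved 46 cells.

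A single DMSO cell stood apart from all other cells in the interferon genes. It held 167 UMIs of the 9 genes, and the next highest cell of any library held 11. Of its 30200 UMIs, 143 were ISG15, which is 26.1% of the 548 ISG15 UMIs of all 4301 DMSO cells, while no other cell had more than 6. It also held 14 of the 20 BST2 UMIs of that library. Results that use the DMSO library are therefore given with and without this cell for the genes it touches, a choice made after its values were seen.

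**Figure D2:**
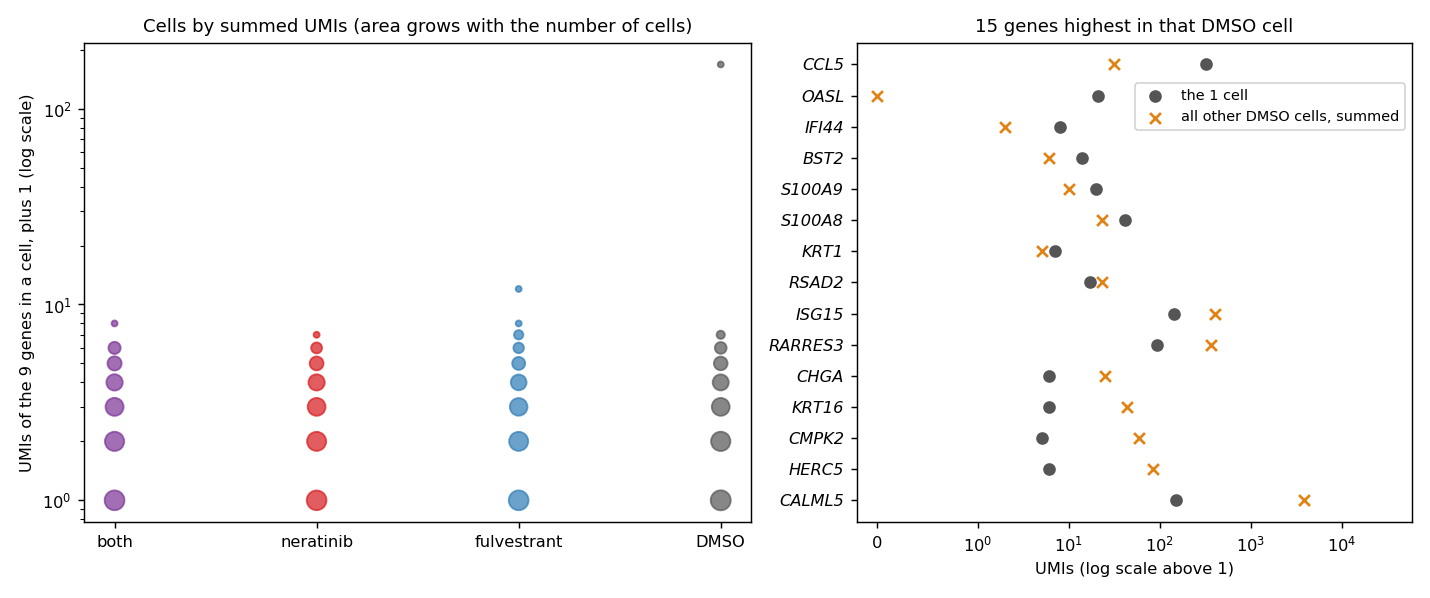
Left, cells by the number of UMIs of the 9 genes in a cell, plus 1 on a log scale, for the 4 libraries, with point area growing with the number of cells; 1 DMSO cell, at 167 UMIs, lies far above the next highest cell, at 11. Right, UMIs of the 15 genes highest in that cell relative to the mean of the other DMSO cells, in the cell (filled points) and summed over all other DMSO cells (crosses); CCL5 had 321 UMIs in the cell.

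All 9 genes were rare in these cells, at no more than 9.74 CPM in any library. The level of a gene was compared between libraries as the log2 ratio of CPM, with 95% intervals (exact binomial, given the sum of both counts) that cover counting error only. A gene was counted as higher where this ratio was at least 0.32 with an interval off 0, that is 25% higher, and as lower where it was at most -0.32, that is 20% lower, among the 12136 genes with mean CPM of at least 1. STAT2, IRF9, IRF1, ISG15, IFI6 and IFITM3 passed that minimum and IFI27, IFITM2 and BST2 did not. All counts of higher and lower genes therefore concern 6 of the 9. Neratinib moved the median of all genes to -0.16 over DMSO and, with fulvestrant present, to -0.15 over fulvestrant. The median of all genes was 0.00 for fulvestrant over DMSO and 0.01 for both drugs over neratinib.

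**Figure D3:**
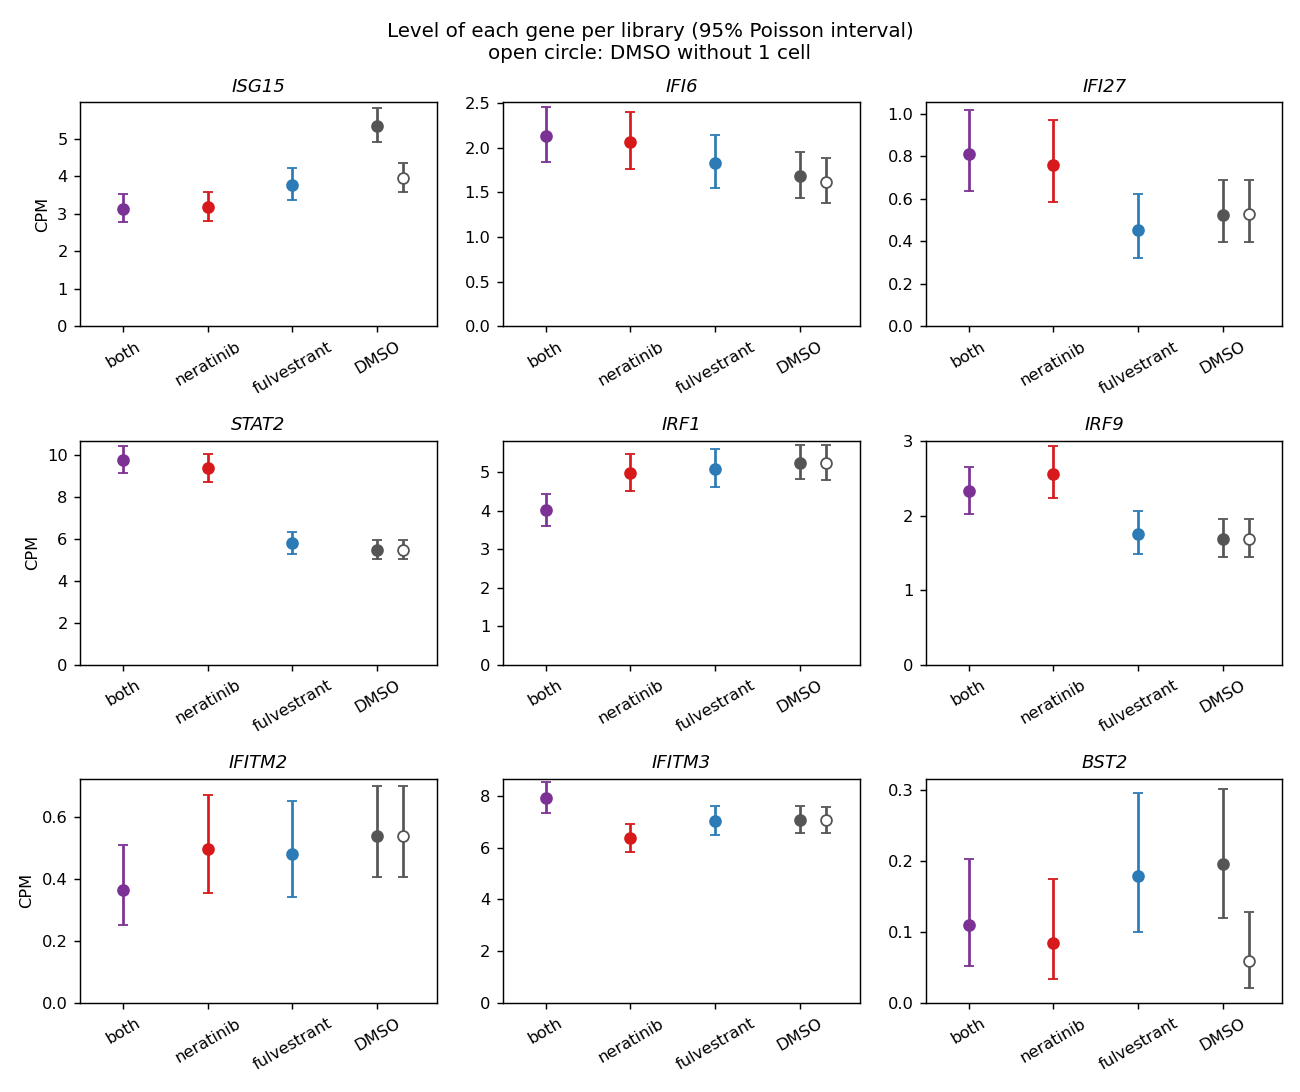
CPM of each of the 9 genes in the 4 libraries, with 95% Poisson intervals that cover counting error only; the open circle is the DMSO library without 1 cell. STAT2 and IRF9 are higher in both libraries with neratinib, and the DMSO level of ISG15 and BST2 drops without that cell.

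Counted over the 6 genes, neratinib over DMSO had 2 higher (STAT2 and IRF9) and 1 lower (ISG15). Without the single cell it had 3 higher, with IFI6 added, and 0 lower. Among all 12136 genes of that pair 13.6% were higher and 33.3% lower. Both drugs over fulvestrant had 2 higher, again STAT2 and IRF9, and 1 lower (IRF1), against 13.8% and 32.4% of all genes. Both drugs over DMSO had 3 higher (STAT2, IRF9 and IFI6) and 2 lower (ISG15 and IRF1), against 14.9% and 33.3% of all genes. STAT2 and IRF9 counted as higher in both neratinib pairs, as did 11.4% of all genes. Fulvestrant over DMSO had 0 higher and 1 lower (ISG15), which was 0 lower without the single cell, against 1.23% and 1.8% of all genes. Both drugs over neratinib had 0 higher and 0 lower, against 1.57% and 2% of all genes. With so few genes, these counts set nothing apart from the background.

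STAT2, the subunit of ISGF3 that carries its activation domain, had the largest ratio among the 6 genes above the minimum. It had 887 UMIs (9.74 CPM, interval 9.11 to 10.4) with both drugs, 776 UMIs (9.35 CPM, 8.71 to 10.0) with neratinib, 484 UMIs (5.79 CPM, 5.28 to 6.33) with fulvestrant and 560 UMIs (5.46 CPM, 5.02 to 5.93) with DMSO. The 2 libraries with neratinib lay above the 2 without it, and their intervals did not overlap with those of the others. The log2 ratio was 0.78 (0.62 to 0.94) for neratinib over DMSO. In the other neratinib pair, both drugs over fulvestrant, which shares no library with the first, it was 0.75 (0.59 to 0.91). For both drugs over DMSO it was 0.83 (0.68 to 0.99). In the fulvestrant pairs the ratio was near 0, at 0.08 (-0.10 to 0.26) over DMSO and 0.06 (-0.08 to 0.20) for both drugs over neratinib.

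The higher STAT2 level with neratinib was also found within cells of like mitochondrial share and within each cell-cycle phase. Among cells with at most 20% mitochondrial UMIs, the ratio was 0.71 (0.50 to 0.93) for neratinib over DMSO and 0.92 (0.71 to 1.13) for both drugs over fulvestrant. Among cells above 20% it was 0.69 (0.34 to 1.07) for neratinib over DMSO, while for both drugs over fulvestrant it was 0.32, with an interval that reached 0. In cells called G1, S and G2M by their phase genes, the neratinib ratio over DMSO was 0.68, 0.87 and 0.84. Cells with a STAT2 UMI made up 20.2% (18.9 to 21.5, exact binomial interval) with both drugs, 19.5% (18.2 to 20.9) with neratinib, 13.1% (12.0 to 14.2) with fulvestrant and 12.2% (11.2 to 13.2) with DMSO. With every cell thinned to 5000 UMIs, which left out no cell, these shares were 5.08%, 4.88%, 2.78% and 3.12% in the same order. A Poisson count of the same mean would give 5.08%, 5.03%, 2.77% and 3.11%. At this depth, more cells with STAT2 RNA and more STAT2 RNA per cell cannot be told apart. The line has no cell type that should lack the gene. In barcodes with 10 to 100 UMIs, which hold mostly free RNA, STAT2 was at 16.6 CPM with both drugs, 9.14 with neratinib, 9.69 with fulvestrant and 7.94 with DMSO. Free RNA thus held STAT2 at or above the level in cells in 3 libraries and slightly below it with neratinib, and its part in the shares was not tested.

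IRF9, which gives ISGF3 its binding to DNA, was the other gene counted as higher in both neratinib pairs. Its level was 212 UMIs (2.33 CPM) with both drugs, 213 UMIs (2.57 CPM) with neratinib, 147 UMIs (1.76 CPM) with fulvestrant and 173 UMIs (1.69 CPM) with DMSO. As with STAT2, the 2 libraries with neratinib were the higher ones. The ratio was 0.61 (0.31 to 0.90) for neratinib over DMSO, 0.41 (0.09 to 0.72) for both drugs over fulvestrant and 0.46 (0.17 to 0.76) for both drugs over DMSO. For fulvestrant it was 0.06 (-0.27 to 0.38) over DMSO and -0.14 (-0.42 to 0.14) for both drugs over neratinib. In cells called G1, neratinib over DMSO was 0.29 (-0.13 to 0.72) and both drugs over DMSO 0.39 (-0.02 to 0.79), and IRF9 no longer counted as higher in these pairs, while both drugs over fulvestrant was at 0.47 (0.04 to 0.92) and still did. In cells called S and G2M, neratinib over DMSO was 1.22 (0.52 to 1.93) and 0.72 (0.17 to 1.27) and counted as higher. Both drugs over DMSO was 0.61 and 0.45 there, and both drugs over fulvestrant 0.31 and 0.31, with intervals that held 0. The IRF9 values are uncertain, because 77.9% of the 72-base stretches in the last 500 bases of its transcripts also occur in the overlapping locus AL136295.5, which the deposited counts list apart. In barcodes with 10 to 100 UMIs IRF9 was at 0.702 CPM with both drugs, 0.315 with neratinib, 0.269 with fulvestrant and 0.481 with DMSO, on 1 to 3 UMIs and below its level in cells. The overlapping locus was at 1.38 CPM with both drugs, 1.40 with neratinib, 1.32 with fulvestrant and 1.11 with DMSO.

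IRF1, a factor that interferon gamma induces quickly, was lower where the drugs were combined. It had 365 UMIs (4.01 CPM, interval 3.61 to 4.44) with both drugs, 412 UMIs (4.97 CPM, 4.50 to 5.47) with neratinib, 425 UMIs (5.08 CPM, 4.61 to 5.59) with fulvestrant and 538 UMIs (5.25 CPM, 4.81 to 5.71) with DMSO. The 3 other libraries overlapped and the library with both drugs lay below them. The ratio was -0.34 (-0.55 to -0.14) for both drugs over fulvestrant and -0.39 (-0.59 to -0.19) over DMSO, both counted as lower. Against neratinib it was -0.31 (-0.52 to -0.10), just short of the size that counts. Neratinib alone over DMSO was at -0.08 (-0.27 to 0.11) and fulvestrant alone at -0.05 (-0.23 to 0.14). The ratio of both drugs over fulvestrant less that of neratinib over DMSO was -0.26 (-0.54 to 0.01), an interval that held 0. Among cells with at most 20% mitochondrial UMIs the ratio of both drugs over DMSO was -0.20 (-0.47 to 0.05) and over fulvestrant -0.18 (-0.45 to 0.08), and IRF1 no longer counted as lower. Above 20% these ratios were -0.45 (-0.87 to -0.01) and -0.24 (-0.69 to 0.24). In cells called G1, S and G2M, both drugs over DMSO was -0.38 (-0.65 to -0.11), -0.45 (-0.89 to -0.02) and -0.39 (-0.77 to -0.01). Both drugs over fulvestrant was -0.18, -0.63 and -0.35 there, counted as lower only in S. Over fulvestrant it counted as lower in 3 of 8 alternatives and over DMSO in 5 of 8, and with median-of-ratios scaling these ratios were -0.17 (-0.38 to 0.03) and -0.21 (-0.41 to -0.02).

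ISG15, a ubiquitin-like protein that is joined to other proteins and also secreted, appeared lower with each drug, but most of that difference rested on the single DMSO cell. It had 285 UMIs (3.13 CPM, interval 2.78 to 3.51) with both drugs, 264 UMIs (3.18 CPM, 2.81 to 3.59) with neratinib, 315 UMIs (3.77 CPM, 3.36 to 4.21) with fulvestrant and 548 UMIs (5.35 CPM, 4.91 to 5.81) with DMSO. Without that cell the DMSO library had 405 UMIs (3.95 CPM, 3.58 to 4.36), which overlapped with fulvestrant. The ratio was -0.51 (-0.71 to -0.30) for fulvestrant over DMSO with all cells and -0.07 (-0.29 to 0.15) without the cell. For neratinib over DMSO it was -0.75 (-0.97 to -0.53) with all cells and -0.31 (-0.54 to -0.09) without the cell, which did not count. For both drugs over DMSO it was -0.77 (-0.98 to -0.56) and -0.34 (-0.56 to -0.11), and still counted as lower. These 3 pairs share the DMSO library. In the pairs without it, ISG15 was at -0.27 (-0.50 to -0.03) for both drugs over fulvestrant and -0.02 (-0.27 to 0.22) for both drugs over neratinib, neither counted. In cells called G1, both drugs over fulvestrant was at -0.61 (-0.97 to -0.26) and counted as lower. It was at 0.07 (-0.45 to 0.58) in cells called S and -0.03 (-0.45 to 0.39) in those called G2M, neither counted. The share of cells with an ISG15 UMI, to which the cell adds only 1, was 6.73% with both drugs, 6.99% with neratinib, 8.26% with fulvestrant and 8.07% with DMSO. In barcodes of 10 to 100 UMIs ISG15 was at 3.98, 5.36, 2.69 and 4.33 CPM in the same order, on 10 to 18 UMIs, and the part of free RNA in these shares was not tested. The variance of the thinned counts was 1.02, 0.986 and 1.02 times the mean with both drugs, neratinib and fulvestrant, and 6.19 times with DMSO.

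**Figure D4:**
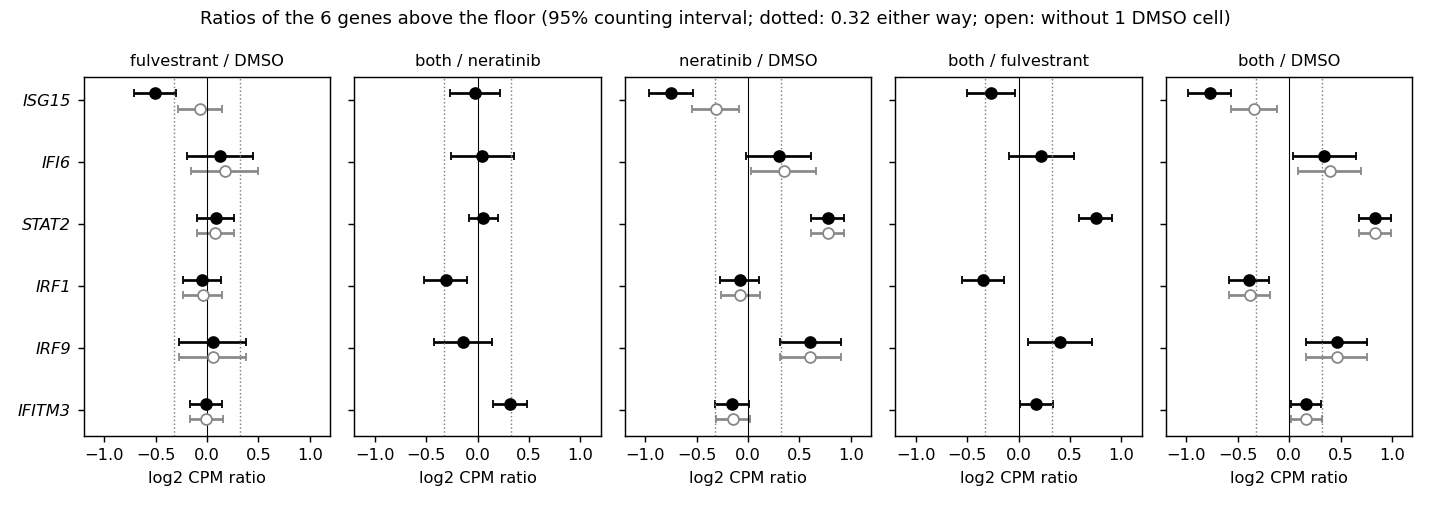
log2 ratio of CPM of the 6 genes with mean CPM of at least 1 in the 5 pairs of libraries, with 95% counting intervals; dotted lines mark 0.32 in either direction and open circles leave out 1 DMSO cell. STAT2 lies to the right of the line in the 3 pairs that add neratinib, and ISG15 for fulvestrant over DMSO lies at -0.51 with all cells and at -0.07 without the cell.

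The DMSO cell was near the others in size and carried the markers of the line. Its 30200 UMIs were more than those of 79.1% of DMSO cells, it had 5260 genes and 19.5% mitochondrial UMIs, and its barcode occurred in no other library. It had 515 UMIs of luminal markers, with 6 of the 7 detected, and 0 UMIs of the immune, fibroblast and endothelial markers. Most DMSO cells had 0 of these too, since 1.74%, 22.9% and 4.72% of them had a UMI of the 3 lists in that order. The luminal count was not set beside that of cells of like size. Of 64 other interferon targets, 32 had a UMI in the cell, 141 UMIs in all, against 29.7 expected from the mean of the other DMSO cells. OASL, an antiviral protein related to oligoadenylate synthetases, had 21 UMIs in the cell and 0 in all other DMSO cells. The chemokine CCL5 had 321 UMIs there and 31 in all other DMSO cells. RSAD2 (viperin) had 17 UMIs in the cell against 23 in the rest, IFI44 had 8 against 2, IFIT1 had 4 against 2 and IFIT3 had 4 against 4. The 2 UMIs of IFNL1, a type III interferon, were the only interferon ligand UMIs of the DMSO library, and both were in this cell. The calgranulins S100A8 and S100A9 had 41 and 20 UMIs in the cell, against 23 and 10 in all other DMSO cells. The cell held 0 UMIs of STAT2 and IRF9, where the mean of the other DMSO cells gives 0.165 and 0.0510 for a cell of its size, so a count of 0 could not show whether either gene differed in it. These genes were named after their values were seen, and why the cell differs was not tested.

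IFI6, an antiviral protein of the endoplasmic reticulum and mitochondria, had 194 UMIs (2.13 CPM) with both drugs, 171 UMIs (2.06 CPM) with neratinib, 153 UMIs (1.83 CPM) with fulvestrant and 172 UMIs (1.68 CPM) with DMSO. All intervals overlapped between neighbouring libraries in that order. Both drugs over DMSO was at 0.34 (0.04 to 0.65), counted as higher, while neratinib over DMSO was at 0.30 (-0.02 to 0.61) and both drugs over fulvestrant at 0.22 (-0.09 to 0.53). Among cells with at most 20% mitochondrial UMIs, both drugs over DMSO was at 0.18 (-0.25 to 0.61) and did not count, while neratinib over DMSO was at 0.47 (0.05 to 0.88) and counted as higher. Without the single DMSO cell neratinib over DMSO was at 0.35 (0.03 to 0.66) and counted as higher too.

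IFITM3, a membrane protein that blocks the entry of viruses from endosomes, had the highest count of the induced genes. It had 722 UMIs (7.93 CPM, interval 7.36 to 8.53) with both drugs, 528 UMIs (6.36 CPM, 5.83 to 6.93) with neratinib, 588 UMIs (7.03 CPM, 6.47 to 7.62) with fulvestrant and 725 UMIs (7.07 CPM, 6.57 to 7.61) with DMSO. The library with both drugs was the highest and that with neratinib the lowest, with intervals that did not overlap between these 2. The ratio for both drugs over neratinib was 0.32 (0.15 to 0.48), just under the size that counts. With all cells and the main scaling the gene counted in no pair. It counted as higher for both drugs over fulvestrant and over DMSO with median-of-ratios scaling, and over neratinib with 5% free RNA subtracted. In cells called G1, S and G2M, both drugs over neratinib was 0.20, 0.79 (0.38 to 1.21) and 0.18. Neratinib over DMSO was -0.49 (-0.91 to -0.08) in S. In G2M, fulvestrant over DMSO was -0.47 (-0.90 to -0.05) and both drugs over fulvestrant 0.55 (0.13 to 0.98). Of the stretches at its 3' end, 11.6% also occur in IFITM1 or IFITM2, so its value is uncertain to that extent.

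The 3 genes below the minimum had few counts. IFI27, a mitochondrial and nuclear membrane protein, had 74 UMIs with both drugs, 63 with neratinib, 38 with fulvestrant and 54 with DMSO, which is 0.812, 0.759, 0.454 and 0.527 CPM. Its ratio was 0.84 (0.26 to 1.44) for both drugs over fulvestrant and 0.53 (-0.02 to 1.08) for neratinib over DMSO. The libraries with neratinib were the 2 higher ones, as for STAT2 and IRF9. IFITM2, a relative of IFITM3, had 33, 41, 40 and 55 UMIs in the same order, with no interval off 0 in any pair, and shares 36.9% of its 3' end stretches with its relatives. BST2 (tetherin), which holds budding viruses at the cell surface, had 10 UMIs with both drugs, 7 with neratinib, 15 with fulvestrant and 20 with DMSO, of which 6 remained without the single DMSO cell. The BST2 ratio for fulvestrant over DMSO was -0.12 (-1.19 to 0.92) with all cells and 1.61 (0.17 to 3.27) without that cell, so its direction rested on that cell. Genes on the opposite strand overlap ISG15, IFI6, IRF1, IFITM2 and IFITM3. The sources used here do not state how the counting treated strand, and whether reads of these partners entered the counts was not tested.

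Upstream of these genes, most measured receptor and kinase genes did not count as higher or lower, and the ligands were almost absent. The 10 interferon ligands together had 3 UMIs with both drugs, 2 with neratinib, 0 with fulvestrant and 2 with DMSO. Of 8 measured receptor, kinase and STAT genes, 0 were higher and 2 lower for neratinib over DMSO, and 0 higher and 1 lower for both drugs over fulvestrant, against 13.6% higher and 33.3% lower, and 13.8% and 32.4%, of all genes. IFNAR2, a chain of the type I receptor, was lower in both, at -0.46 (-0.75 to -0.17) and -0.62 (-0.95 to -0.30). IFNAR1, its partner chain, was at -0.04 and 0.02 in these pairs and the kinase TYK2 at -0.04 and 0.05. JAK1 was at 0.28 and 0.31, too small to count. In both fulvestrant pairs 0 of the 8 were higher and 0 lower. Of all genes, 1.23% were higher and 1.8% lower for fulvestrant over DMSO, and 1.57% and 2% for both drugs over neratinib.

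Among sensors and adaptors, TRAF3 and TICAM1, which carry signals from pattern receptors to interferon production, were lower in both neratinib pairs. TRAF3 was at -1.63 (-1.94 to -1.33) and -1.52 (-1.82 to -1.22), and TICAM1 at -0.49 (-0.67 to -0.31) and -0.41 (-0.60 to -0.23), for neratinib over DMSO and for both drugs over fulvestrant. They were 2 of 8 measured genes of that list, near the 28.3% of all genes that were lower in both pairs, with 1 higher in the first pair and 0 in the second. Of the 7 other IRF genes measured, 2 were higher and 0 lower for neratinib over DMSO, and 2 higher and 1 lower for both drugs over fulvestrant, against the same shares of all genes. IRF2, which competes with IRF1 for its sites, was higher in both, at 0.52 (0.44 to 0.60) and 0.45 (0.37 to 0.54). IRF3 was at -0.29 and -0.21 and IRF7 at 0.25 and 0.16, none counted.

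Among listed inhibitors of cytokine signaling, which do not all act on the interferon pathway, USP18, CISH and PIAS3 were lower in both neratinib pairs. Of 9 measured, 0 were higher and 4 lower in each neratinib pair, with medians of -0.31 over DMSO and -0.22 over fulvestrant, beside -0.16 and -0.15 over all genes. With 9 genes, this count is near the shares of all genes, of which 33.3% and 32.4% were lower and 13.6% and 13.8% higher. USP18, the protease that removes ISG15 from proteins and restrains the type I receptor, was at 10.2 CPM with both drugs, 10.4 with neratinib, 18.7 with fulvestrant and 20.9 with DMSO. Its ratio was -1.01 (-1.13 to -0.90) for neratinib over DMSO and -0.87 (-0.99 to -0.75) for both drugs over fulvestrant. PIAS3 was at -0.51 and -0.60 in the same pairs. CISH, a suppressor of cytokine signaling through STAT5, was lower with either drug and had 168 UMIs with both drugs, 626 with neratinib, 429 with fulvestrant and 1377 with DMSO. SOCS1, which blocks the JAK kinases, was higher with fulvestrant, at 0.50 (0.31 to 0.69) over DMSO and 0.37 (0.15 to 0.60) for both drugs over neratinib. SOCS1 and CISH were the only listed pathway genes counted the same way in both fulvestrant pairs. Of the 4 measured genes of ISG15 conjugation, USP18 among them, 2 and 1 were lower and 0 higher in the neratinib pairs. UBE2L6, the conjugating enzyme for ISG15, had 7 UMIs with both drugs, 1 with neratinib, 11 with fulvestrant and 11 with DMSO.

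Other known interferon targets included genes much higher and genes much lower with neratinib, GBP2 and OAS3 among them, and none counted with fulvestrant. Of 64 such genes, 32 were measured. For neratinib over DMSO 5 were higher and 16 lower, with a median of -0.34, and for both drugs over fulvestrant 5 were higher and 16 lower, with a median of -0.30. The medians of all genes were -0.16 and -0.15, and all genes were likewise more often lower than higher, 33.3% and 32.4% lower and 13.6% and 13.8% higher. With median-of-ratios scaling, which moves neratinib ratios up by 0.18 and 0.17, the counts were 5 higher and 11 lower in the first pair and 8 higher and 8 lower in the second. Counted the same way in both pairs were 4 higher and 16 lower of the 32, against 11.4% higher and 28.3% lower of all genes. GBP2, a guanylate-binding protein, was the highest, at 1.59 (1.47 to 1.71) for neratinib over DMSO and 1.69 (1.56 to 1.82) for both drugs over fulvestrant. It had 23.3 CPM with both drugs, 24.0 with neratinib, 7.25 with fulvestrant and 7.97 with DMSO. TRIM14 was at -1.25 and -0.85, OAS3, an oligoadenylate synthetase, at -0.90 and -1.01, and ISG20, an exonuclease, at -0.91 and -0.83 in the same pairs. Unlike GBP2, TRIM14, OAS3 and ISG20, some targets were below the minimum, with IFIT1, MX1 and IFITM1 among them. IFIT1 had 3 UMIs with both drugs, 2 with neratinib, 5 with fulvestrant and 6 with DMSO. MX1 had 42, 30, 41 and 51 in the same order, and IFITM1 had 1 UMI, with neratinib. Targets below the minimum did not all run the same way. IFIT2 had 39, 27, 7 and 11 UMIs in that order, and IFIT5 had 22, 17, 37 and 56. In both fulvestrant pairs 0 of the 32 were higher and 0 lower, which is near the background. Of all genes, 1.23% were higher and 1.8% lower for fulvestrant over DMSO, and 1.57% and 2% for both drugs over neratinib.

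**Figure D5:**
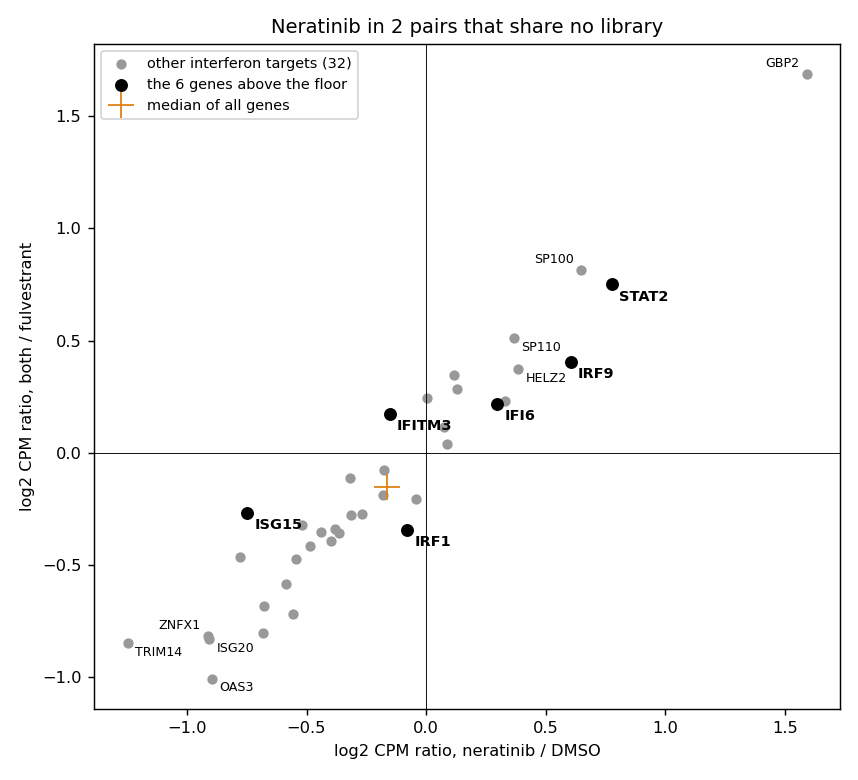
log2 ratio of CPM for neratinib over DMSO (x axis) and for both drugs over fulvestrant (y axis), 2 pairs that share no library, for the 6 genes with mean CPM of at least 1 (black), 32 other interferon targets (grey) and the median of all genes (cross). STAT2 and IRF9 lie at the upper right with GBP2 and SP100, and most grey points lie at the lower left.

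Within a library the genes showed little sign of moving together from cell to cell. Cells with no UMI of any of the 9 genes made up 51.2% with both drugs, 51.9% with neratinib, 55.3% with fulvestrant and 55.5% with DMSO, and cells with 4 or more of the genes made up at most 0.258% of a library. Across cells, the mean correlation over the 4 libraries ranged from -0.01 to 0.12 over the 36 pairs of genes, with a median of 0.01. The highest, ISG15 with BST2, was 0.01 without the single DMSO cell, and the range was then -0.01 to 0.03. Correlations this weak in sparse counts are no finding, and cells of a library share its preparation and vary in depth. The genes most like each member, among 4772 abundant genes, reached a mean r of 0.12 at most. TM7SF2, an enzyme of sterol synthesis, was closest to IFITM3, with 0.12, and PRDX5 followed with 0.10. TNFRSF12A, the TWEAK receptor, was closest to IRF1 (0.09) and PAWR next (0.07). For IFI6 these were B2M (0.07) and MUC1 (0.06), for STAT2 NEAT1 and TFAP2C (both 0.05), and for ISG15 HIST1H4C and HES4 (both 0.04). For IRF9 they were LINC00672 (0.04) and SEPT9 (0.03), for IFI27 NUDT1 and C22orf39 (both 0.03), for IFITM2 SRARP and TM7SF2 (both 0.05), and for BST2 B2M and CALML5 (both 0.04 with all cells, 0.02 and 2.81e-05 without the single DMSO cell).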

How the data were processed

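The deposited values are whole-number UMI counts per gene and barcode, made by the authors. The submitters' processing notes name Cell Ranger 3.1.0 and hg19, while the gene identifiers fit GRCh38, so only RefSeq promoter coordinates are given. The sources used here do not say whether reads were evened between libraries. The labels' target was 3000 cells per sample at 60000 reads per cell. Libraries were told apart by the barcode suffix, matched to the number that opens each sample title. Cells had at least 5000 UMIs and 500 genes, and held 91091724 UMIs with both drugs, 82967775 with neratinib, 83642623 with fulvestrant and 102504452 with DMSO. No doublet caller was run. Genes with a shared symbol were kept apart by identifier.

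Counts were summed per library and set per 1000000 (numpy 2.4.6, scipy 1.17.1, pandas 2.3.3). Ratios had 95% conditional binomial intervals and shares had Clopper-Pearson intervals. With 1 library per group no test was made. Departure from additivity was the log2 ratio of both drugs over fulvestrant less that of neratinib over DMSO. Cell phases came from scanpy 1.11.5. The ratio step was checked on simulated data.

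The 9 genes and all lists were chosen with earlier results of these data known. Named were the 9 genes, fixed pathway genes, up to 4 per list counted the same way in both pairs of a drug, and the 2 genes most correlated with each of the 9. Some genes that this rule names are not reported here. Genes of the single DMSO cell, and IFIT2 and IFIT5, were added after their values were seen. Of the listed symbols, 4 were not matched. Alternatives were a 20% mitochondrial ceiling, at least 10000 UMIs, median-of-ratios scaling, totals without mitochondrial transcripts, leaving out the 5% of cells with most UMIs, G1 cells only, 5% free RNA subtracted, 1.5-fold, other minimum levels, thinning to 5000 UMIs and leaving out the single cell.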

Additional observations from a re-analysis of the deposited data

Results flagged for a closer look

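In 2 genes the neratinib ratio differed with fulvestrant present, and the counting interval of this departure from additivity lay off 0. Whether a drug effect differed was not tested, since each group is 1 library. The ISG15 departure rested on 1 DMSO cell. For ISG15 the departure was 0.48 (0.17 to 0.79): neratinib stood at -0.27 over fulvestrant where both drugs were given, and at -0.75 over DMSO where it was given alone. Without the single DMSO cell that held 143 ISG15 UMIs, the departure was 0.05 (-0.28 to 0.37). For IFITM3 the departure was 0.33 (0.10 to 0.55): neratinib stood at 0.17 over fulvestrant where both drugs were given, and at -0.15 over DMSO where it was given alone. The IFITM3 departure was 0.32 (0.10 to 0.55) without that cell. In cells with at most 20% mitochondrial UMIs it was 0.28 (-0.03 to 0.59) and in cells called G1 0.12 (-0.17 to 0.41), both intervals holding 0.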

How the results depend on the processing

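No paired analysis was possible because each group is 1 library. STAT2 counted as higher in the 3 pairs that add neratinib under all 8 alternatives run on the ratios, at 0.68 to 0.96 for neratinib over DMSO, 0.75 to 0.92 for both drugs over fulvestrant and 0.76 to 1.01 for both drugs over DMSO. Counts of the 6 genes moved elsewhere, and the cause was not tested. With at most 20% mitochondrial UMIs per cell, 0 were lower for both drugs over fulvestrant and 1 for both over DMSO, and of the other interferon targets 1 was higher for both over neratinib and 2 for neratinib over DMSO. With median-of-ratios scaling, both over fulvestrant had 4 higher and 0 lower and both over DMSO 1 lower, and the other targets had 8 higher and 8 lower, and 8 higher and 10 lower, in these pairs. Without mitochondrial transcripts in the totals, 0 were lower for both over fulvestrant and 1 for both over DMSO. Without the 5% of cells with most UMIs, 0 were lower for both over fulvestrant. IFI6 became higher for neratinib over DMSO, where 3 were then higher, under the mitochondrial ceiling, median-of-ratios scaling, totals without mitochondrial transcripts and without the single cell. In G1 cells, 1 was lower for both over neratinib, 1 higher for neratinib over DMSO and 1 higher for both over DMSO, and for both over fulvestrant ISG15 took the place of IRF1 as the 1 lower. With 5% free RNA subtracted, both over neratinib had 1 higher and 1 lower. At 1.5-fold, 0 were lower for fulvestrant over DMSO, both over fulvestrant had 1 higher and 0 lower, and both over DMSO 1 higher and 1 lower. Without the single DMSO cell, 0 were lower for fulvestrant over DMSO and 0 for neratinib over DMSO. Of the ratios of the 9 genes, 6, 7, 6 and 6 moved beyond their counting interval under the mitochondrial ceiling, G1 cells, median-of-ratios scaling and without the single cell, each of 45.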
